A study of Mus musculus with 4 samples.

Results

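Mitosis genes are the genes whose products condense, attach, separate and divide the duplicated chromosomes at the end of the cell cycle, and 44 of them, a list of G2 and M phase genes given by symbol, were followed here among the 53465 genes of the count table. Each of the 44 symbols matched a single row, and all 44 passed the filter on low counts, which left 14682 genes to be tested. MDSCs, myeloid-derived suppressor cells, an immature population that tumors cause to build up, had been sorted with beads against Gr-1 (Ly-6G/Ly-6C) from the spleens of male BALB/c mice carrying subcutaneous 4T1 breast tumors; the labels give day 21 after the injection and the methods an earlier day, with mice that were 6 weeks old. The cells were then kept for 6 h in control medium (2 libraries) or in medium with 5 μg/mL EGCG, a green tea catechin (2 libraries), so that every library came from tumor-bearing, otherwise untreated animals. Whether replicate libraries go back to separate animals or separate cultures is not given in the sources used here, so p-values measure only the spread between these libraries.

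In a dividing cell, CDK1 bound to cyclins A and B starts mitosis, kinetochores tie the chromosomes to spindle microtubules, the spindle checkpoint holds the cell until every chromosome is attached, and the anaphase-promoting complex (APC/C) then marks securin and the cyclins for destruction. Most of these genes are transcribed late in the cycle, under the DREAM, B-MYB and FOXM1 factors that act through CHR and CCAAT elements in their promoters. In the myeloid lineage they mark progenitors, since mature neutrophils have left the cycle. Because these are bulk libraries, fewer cycling cells and less mitotic RNA per cycling cell cannot be told apart.

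The counts behind the members were deep, from 172 (Ttk in control replicate 1) to 5350 (Mki67 in control replicate 1), in libraries of 17767318 to 18390385 counts. Levels are given as CPM, counts scaled for depth with TMM library sizes. The groups were compared by the quasi-likelihood test of edgeR, and adjusted p are Benjamini-Hochberg values across the 14682 genes. With 2 libraries against 2, an exact permutation test cannot go below a two-sided p of 0.333, so none is given.

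Many of the members, though not all, hold the same short promoter elements. The 200 bases before the start of 3 genes are printed below (RefSeq starts, GRCm38.p6, gene strand, 5′ to 3′), 2 with long and lower transcripts (Mki67, Ckap5) and 1 with a short transcript (Ube2c); they were chosen after the motifs had been located, as examples that hold both elements. Capitals mark the CHR element (TTTGAA or TTCGAA, either strand) and the CCAAT box (CCAAT, either strand). They lie at chr7:135716380-135716579 (Mki67, minus strand), chr2:91526562-91526761 (Ckap5, plus strand) and chr2:164769729-164769928 (Ube2c, plus strand).
Mki67: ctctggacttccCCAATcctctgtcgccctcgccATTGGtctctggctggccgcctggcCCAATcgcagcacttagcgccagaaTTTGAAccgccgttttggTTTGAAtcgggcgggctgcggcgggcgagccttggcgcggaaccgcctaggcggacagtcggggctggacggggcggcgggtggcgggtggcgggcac
Ckap5: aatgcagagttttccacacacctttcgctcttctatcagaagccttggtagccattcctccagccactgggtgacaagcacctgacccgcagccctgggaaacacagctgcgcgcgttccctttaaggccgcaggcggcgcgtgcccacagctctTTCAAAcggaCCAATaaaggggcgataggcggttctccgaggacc
Ube2c: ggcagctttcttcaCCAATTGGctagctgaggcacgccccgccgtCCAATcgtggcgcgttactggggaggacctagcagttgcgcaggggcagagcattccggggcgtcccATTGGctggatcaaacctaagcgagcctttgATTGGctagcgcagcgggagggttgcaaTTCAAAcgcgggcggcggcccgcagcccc
The CHR letters that lie closest to the start begin 98 bases before it in Mki67, 45 in Ckap5 and 29 in Ube2c.

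Promoter windows from 250 bases before to 50 after the start were on hand for 36 of the 44 members (no entry: Aurkb, Ccna2, Foxm1, Incenp, Kif20a, Smc4, Spc24 and Tpx2). The CHR letters occurred in the windows of 28 of the 36 genes (77.8%), against 21.7% of the 27025 genes in the promoter table. In the 250 bases before the start alone the shares were 41.7% and 19.6%. CCAAT occurred in 26 of the 36 (72.2%), against 41.1% of all genes. An E2F site (TTTCGCGC or TTTGGCGC, either strand) occurred in 2 of the 36 (5.56%), against 0.929% of all genes. The CHR letters were found in 16 of 17 members with longer coding sequences and in 12 of 19 with shorter ones, but in 8 of 17 and 7 of 19 when only the bases before the start were read. A match to these letters is a description of the sequence and not a measured binding site.

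Of the 44 mitosis genes, 1 was called lower in the EGCG group, Mki67, which encodes the chromosome-coating proliferation marker Ki-67, and 0 were called higher at an adjusted p under 0.05 (edgeR; DESeq2 gave the same counts). Mki67 was at 293 and 279 CPM in the control libraries and at 209 and 201 CPM in the EGCG libraries. Both EGCG libraries lay far below both control libraries, and the replicates of each group lay close together. Its level went from 286.2 ± 9.65 CPM (SD, n = 2) to 205.0 ± 5.17 CPM (SD, n = 2), a log2 fold change of -0.48 (standard error 0.07, adjusted p of 0.0245 by edgeR's quasi-likelihood test). Over all tested genes, 0.136% were called lower and 0.0136% higher by the same rule, so that a count of 0 called in a small group of members says nothing about that group. Mki67 (ENSMUSG00000031004) lies on chromosome 7 of GRCm38 from 135689784 to 135716361 on the minus strand, and its coding sequence of 9.53 kb is the longest among the members. The call was lost with a correction for gene length, where edgeR gave an adjusted p of 0.0878 with an offset on exonic length (log2 fold change -0.36) and 0.495 with an offset on coding length (-0.19), the latter added after the data were seen. Without a filter on low counts, the adjusted p was 0.525 at the same fold change. The log2 fold change of Mki67 ran from -0.51 to -0.44 with each library left out in turn.

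**Figure D1:**
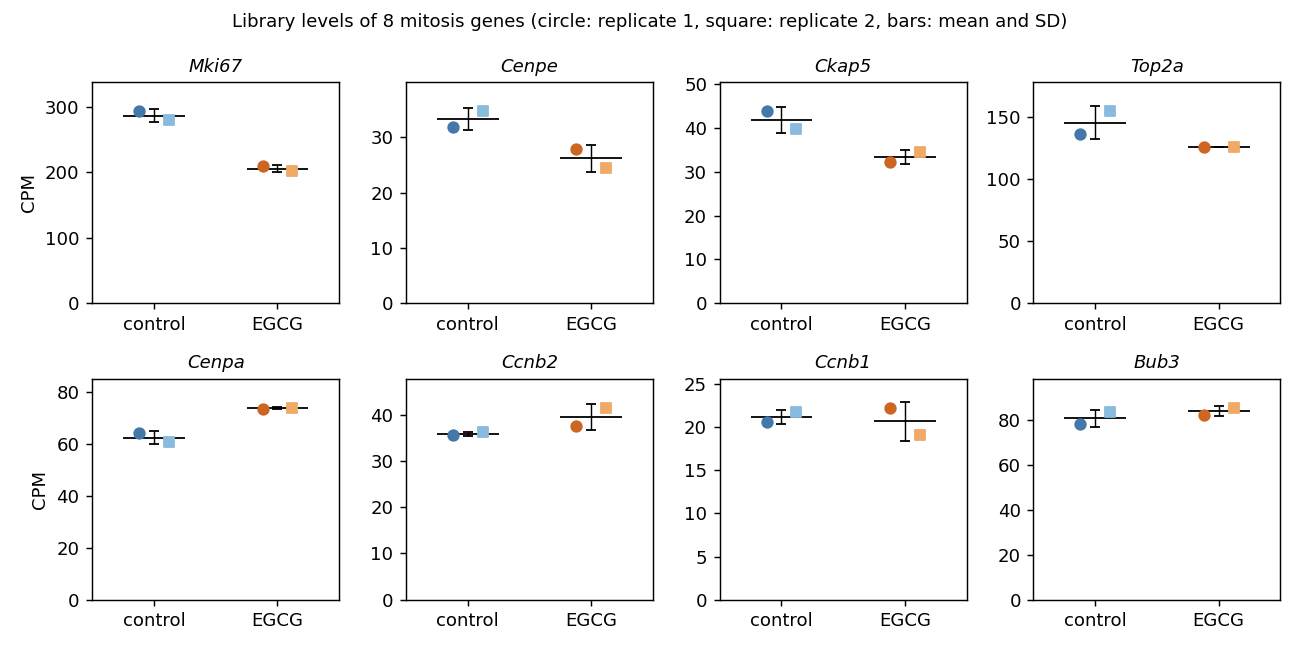
CPM of 8 mitosis genes in each library (circles: replicate 1, squares: replicate 2; horizontal lines and bars: mean and SD of 2 libraries; each axis starts at 0). Mki67, Cenpe, Ckap5 and Top2a were lower in both EGCG libraries, Cenpa and Ccnb2 were higher in both, and the groups overlapped for Ccnb1 and Bub3.

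At an unadjusted p under 0.05, 7 of the 44 members were lower with EGCG (Mki67, Cenpe, Ckap5, Aspm, Kif4, Cenpf and Top2a) and 1 of the 44 was higher (Cenpa), against 7.02% and 5.22% of all tested genes. All 7 were among the 22 members with the longer coding sequences. The share at this p among tested genes of the same lengths was not taken. The fitted level was lower in 29 of the 44 members and higher in 15, with a median log2 fold change of -0.03 (0.0031 over all tested genes, of which 49.4% were lower). Without control replicate 2, 19 members were lower and 25 higher, with a median of 0.04. The log2 fold changes ran from -0.48 to 0.24, with standard errors from 0.07 to 0.15. In 14 members both EGCG libraries lay below both control libraries, in 8 both lay above, and in 22 the groups overlapped. Over all tested genes, 21.2% lay wholly below and 21.5% wholly above.

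**Figure D2:**
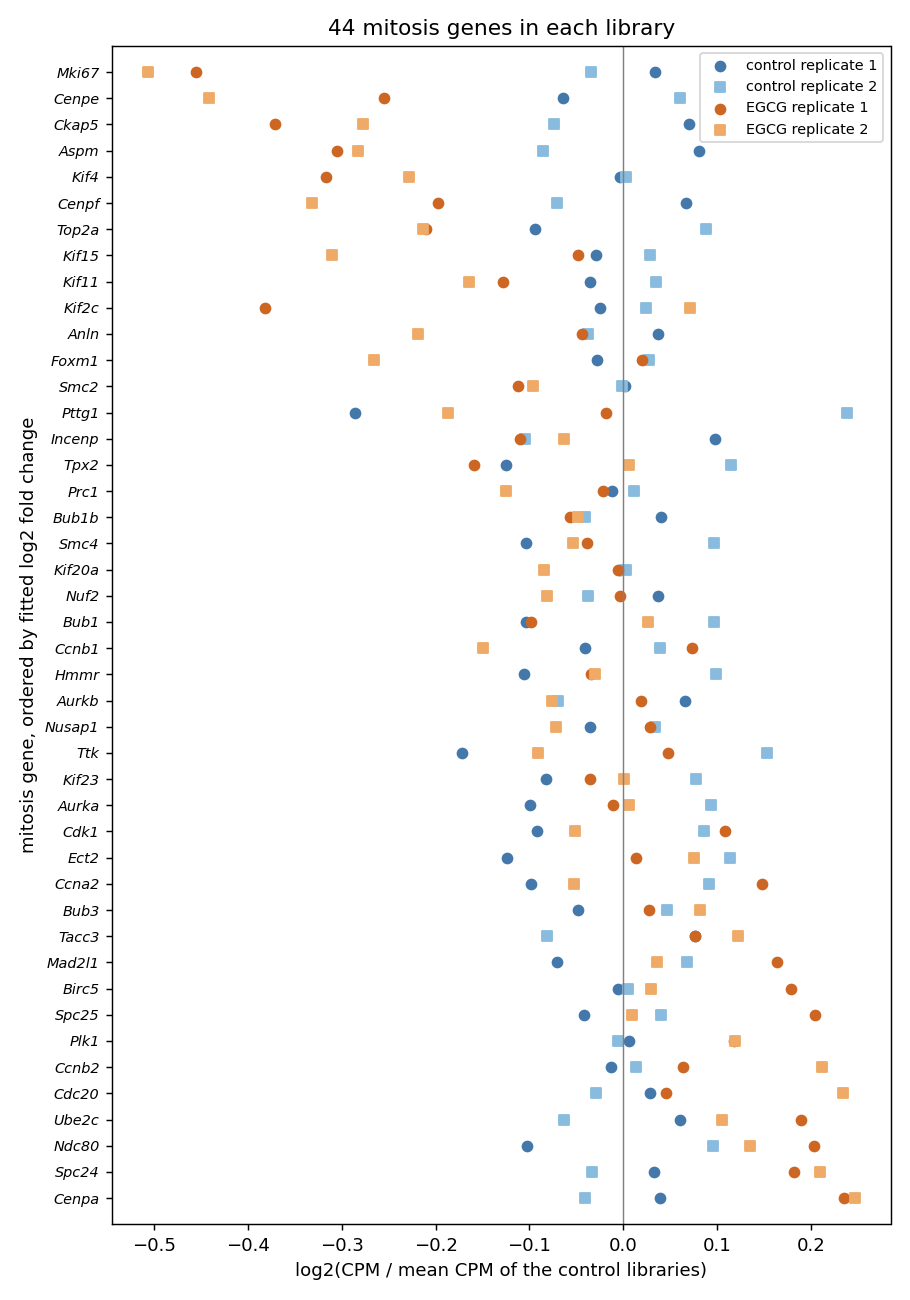
log2 of the CPM in each library over the mean CPM of the control libraries, for the 44 mitosis genes ordered by fitted fold change (control blue, EGCG orange; circles replicate 1, squares replicate 2). Mki67 at the top has both EGCG libraries far to the left of both control libraries, Cenpa at the bottom has both to the right, and 22 genes have overlapping groups.

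Among the genes of chromosome structure, Mki67 stood beside Top2a, the topoisomerase that untangles sister chromatids, and the condensin subunits Smc2 and Smc4. Top2a was at 136 and 155 CPM in the control libraries and at 126 CPM in each EGCG library. The groups did not overlap, though the distance from control replicate 1 was small (log2 fold change -0.21, standard error 0.08, adjusted p of 0.318 by edgeR). Smc2 was at 49.1 and 49.0 CPM in the control and at 45.4 and 45.9 CPM in the EGCG libraries (log2 fold change -0.10, standard error 0.08). Smc4, which pairs with Smc2 in condensin, was at 115 and 133 CPM in the control and at 121 and 119 CPM in the EGCG libraries, so that its groups overlapped. The ratio of Mki67 to Top2a CPM was 2.15 and 1.80 in the control and 1.66 and 1.603 in the EGCG libraries.

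The genes that start mitosis come next. CDK1, its cyclins and the transcription factor FOXM1 had log2 fold changes from -0.12 (Foxm1, standard error 0.12) to 0.14 (Ccnb2, standard error 0.09), and the smallest adjusted p among these 5 was 0.596 by edgeR. Cdk1, the kinase itself, was at 27.2 and 30.7 CPM in the control and at 31.2 and 27.9 CPM in the EGCG libraries (log2 fold change 0.03, standard error 0.11). Ccna2, cyclin A2, was at 40.4 and 46.1 CPM in the control and at 47.9 and 41.7 CPM in the EGCG libraries. Both genes overlapped between the groups. The B-type cyclins are degraded at anaphase. Ccnb2 was at 35.5 and 36.2 CPM in the control and at 37.5 and 41.5 CPM in the EGCG libraries, and Ccnb1 at 20.6 and 21.8 CPM in the control and at 22.3 and 19.1 CPM in the EGCG libraries. Thus Ccnb2 was above the control range in both EGCG libraries and Ccnb1 lay on either side of it (log2 fold change -0.03, standard error 0.11). The ratio of Ccnb2 to Ccnb1 CPM was 1.73 and 1.66 in the control and 1.68 and 2.18 in the EGCG libraries, so that the groups overlapped. For Ccnb1, 27.7% of the 31-base words of its transcripts also occur in transcripts of other genes, mainly its pseudogene, so its count is uncertain. Foxm1 was at 22.8 and 23.7 CPM in the control and at 23.5 and 19.3 CPM in the EGCG libraries, the low value being EGCG replicate 2 alone.

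For the 5 genes of the mitotic kinases and the chromosomal passenger complex, which corrects faulty attachments, the smallest adjusted p was 0.671 by edgeR. Plk1, polo-like kinase 1, was at 26.2 and 26.0 CPM in the control and at 28.3 CPM in each EGCG library (log2 fold change 0.12, standard error 0.10). Birc5, or survivin, the smallest passenger subunit and a gene also known for inhibiting apoptosis, was at 23.5 and 23.7 CPM in the control and at 26.7 and 24.1 CPM in the EGCG libraries (log2 fold change 0.11, standard error 0.10). In both genes the EGCG libraries lay above the control libraries, by little. The log2 fold change of Birc5 was 0.032 without EGCG replicate 1 and 0.18 without EGCG replicate 2. Aurka, the spindle pole kinase, was at 15.7 and 17.9 CPM in the control and at 16.7 and 16.9 CPM in the EGCG libraries. Aurkb, the passenger kinase, was at 22.7 and 20.6 CPM in the control and at 22.0 and 20.5 CPM in the EGCG libraries. For Aurka, Aurkb and Incenp (log2 fold change -0.09, standard error 0.09) the groups overlapped. Plk1 shares 14.8% of its 31-base words with other transcripts, mainly those of a pseudogene.

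In the 5 spindle checkpoint genes, the log2 fold changes ran from -0.05 (Bub1b) to 0.10 (Mad2l1). Bub1, a checkpoint kinase, was at 16.3 and 18.7 CPM in the control and at 16.3 and 17.8 CPM in the EGCG libraries. Bub1b, or BUBR1, was at 33.6 and 31.8 CPM in the control and at 31.4 and 31.6 CPM in the EGCG libraries. Bub3, the partner of both, which is also expressed outside mitosis, was at 78.0 and 83.3 CPM in the control and at 82.2 and 85.4 CPM in the EGCG libraries. Only for Bub1b among the 5 did the groups not overlap, and there by a margin smaller than the spread of the control libraries. Mad2l1 (MAD2) and the kinase Ttk (MPS1) overlapped between the groups. Of the anaphase genes, Ube2c, the ubiquitin-conjugating enzyme of the APC/C, was at 42.6 and 39.1 CPM in the control and at 46.6 and 43.9 CPM in the EGCG libraries (log2 fold change 0.15, standard error 0.09). Cdc20, the activator of the APC/C at the checkpoint, was at 35.5 and 34.1 CPM in the control and at 36.0 and 41.0 CPM in the EGCG libraries (log2 fold change 0.14, standard error 0.10). Both lay above the control range, with adjusted p of 0.558 and 0.600 by edgeR. With each library left out in turn, the log2 fold change ran from 0.090 to 0.22 for Ube2c and from 0.047 to 0.24 for Cdc20. Among the anaphase genes, Pttg1, securin, was spread most between the control libraries, at 17.0 and 24.5 CPM. It was at 20.5 and 18.3 CPM in the EGCG libraries. Cdc20 shares 25.5% of its 31-base words with other transcripts, and Ube2c overlaps exons of Tnnc2 on the opposite strand over 22.8% of its exonic length, which counting without strand cannot separate.

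The centromere and kinetochore genes spanned both ends of the list. Cenpa, the histone H3 variant that marks centromeres, was at 64.1 and 60.7 CPM in the control and at 73.5 and 74.1 CPM in the EGCG libraries. It was the member with the highest fold change, wholly above the control range (log2 fold change 0.24, standard error 0.08, adjusted p of 0.248 by edgeR). Cenpe, a very large kinesin of the kinetochore, was at 31.9 and 34.8 CPM in the control and at 27.9 and 24.5 CPM in the EGCG libraries, wholly below it (log2 fold change -0.35, standard error 0.10, adjusted p of 0.219 by edgeR). Cenpf, a large coiled-coil protein of the outer kinetochore, was at 33.7 and 30.7 CPM in the control and at 28.1 and 25.6 CPM in the EGCG libraries (log2 fold change -0.26, standard error 0.10). The NDC80 complex has 4 subunits: NDC80 and NUF2 form the end that binds microtubules, and SPC24 and SPC25 anchor it to the kinetochore. Of these, Spc24 was at 11.8 and 11.3 CPM in the control and at 13.1 and 13.4 CPM in the EGCG libraries (log2 fold change 0.20, standard error 0.13), and Ndc80 at 16.1 and 18.5 CPM in the control and at 19.9 and 19.0 CPM in the EGCG libraries (0.17, standard error 0.12). Both lay above the control range without passing the test. The log2 fold change was 0.11 for Spc25 and -0.04 for Nuf2, with overlapping groups. The ratio of Mki67 to Cenpa CPM was 4.57 and 4.61 in the control and 2.84 and 2.72 in the EGCG libraries; these are the members with the lowest and highest fold change, so the ratio restates that choice.

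Besides Cenpe, the members hold 6 kinesins, motors that slide and shorten spindle microtubules, with coding lengths from 2 to 6 kb. All 6 had a lower fitted level, as did 66.5% of all tested genes from 2 to 3 kb and 81.2% from 3 to 6 kb. Of the 6, 4 lay wholly below the control range, as did 31.2% and 48.4% of all tested genes of these lengths. Kif4, the chromosome-bound motor, was at 15.8 CPM in each control library and at 12.7 and 13.5 CPM in the EGCG libraries (log2 fold change -0.27, standard error 0.12, adjusted p of 0.393 by edgeR). Kif15 was at 26.9 and 28.0 CPM in the control and at 26.6 and 22.2 CPM in the EGCG libraries, and it is EGCG replicate 2 that stood low. Kif11, which pushes the spindle poles apart, was at 51.9 and 54.5 CPM in the control and at 48.7 and 47.5 CPM in the EGCG libraries (log2 fold change -0.15, standard error 0.08). The remaining log2 fold changes were -0.14 for Kif2c, -0.04 for Kif20a and -0.02 for Kif23. Kif20a overlaps exons of Cdc23 on the opposite strand over 29.3% of its exonic length and Kif4 those of Pdzd11 over 15.1%.

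The 6 spindle assembly genes include long and short members. The longest of them, Ckap5 and Aspm, lay wholly below the control range, as did 75.3% of all tested genes with a coding sequence of 6 kb or more. Ckap5, a microtubule polymerase (ch-TOG), was at 43.8 and 39.7 CPM in the control and at 32.3 and 34.4 CPM in the EGCG libraries (log2 fold change -0.32, standard error 0.10, adjusted p of 0.212 by edgeR). Aspm, a spindle pole protein, was at 28.3 and 25.2 CPM in the control and at 21.7 and 22.0 CPM in the EGCG libraries (log2 fold change -0.29, standard error 0.11). In both genes the groups were apart by more than the spread within each group. Tacc3, the partner of Ckap5 on spindle fibers, had a log2 fold change of 0.10 (standard error 0.09), with overlapping groups. The log2 fold changes of Tpx2, Hmmr and Nusap1 ran from -0.07 to -0.02, also with overlapping groups. Of the 3 cytokinesis genes, the log2 fold change was -0.13 for Anln, which encodes the contractile ring protein anillin, -0.07 for Prc1, which bundles the midzone, and 0.05 for Ect2, the activator of RhoA. With each library left out in turn, it ran from -0.22 to -0.043 for Anln and from -0.12 to -0.020 for Prc1.

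Per kb of merged exonic length, Mki67 was the most abundant member in the control libraries (28.4 CPM per kb), followed by Smc4 (23.8), Ccnb2 (23.4), Cdc20 (18.7) and Top2a (16.2). The order depends on the length used: per kb of the longest transcript Smc4 (28.7), Mki67 (28.4) and Top2a (27.9) lay together, and per kb of coding sequence Mki67 ranked 13 of 44 and Cenpa 1. In the EGCG libraries Mki67 was at 20.4 CPM per kb of exonic length, below Ccnb2 (25.8) and Smc4 (23.0), and it did not differ from Cdc20 (20.6) beyond the spread of Cdc20. The neighbors Smc4 and Ccnb2 did not differ beyond the spread of Smc4 in the control libraries. The lowest members were Anln (1.83 CPM per kb), Cenpf (2.09) and Ttk (2.16).

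The fold changes of the members followed their length. The Spearman correlation of the log2 fold change with coding length was -0.79 over the 44 members, and -0.39 over the 12153 tested genes with a coding length (genes are not independent replicates, and no test is given). With merged exonic length it was -0.61 over the members and -0.29 over 14666 tested genes. Of the 22 members with the longer coding sequences (from 2.24 to 9.53 kb), 21 had a lower fitted level and 13 lay wholly below the control range, against 76.6% and 43.8% of the 2868 tested genes in that range of lengths. Of the 22 with the shorter ones (from 0.402 to 2.16 kb), 8 had a lower fitted level, 1 lay wholly below and 8 lay wholly above, against 42.7%, 15.5% and 25.6% of the 8283 tested genes in that range. The median log2 fold change was -0.11 in the longer and 0.08 in the shorter members. Leaving out each library in turn, the median ran from -0.15 to -0.10 in the longer and from 0.036 to 0.11 in the shorter members. Divided by merged exonic length, it was -0.11 in the longer 22 (from 5.21 to 15.4 kb) and -0.01 in the shorter 22 (from 1.53 to 4.93 kb), a difference of -0.10, and it was -0.06 and 0.03 over the tested genes of the same lengths. With each library left out in turn, the difference between the members ran from -0.19 to -0.088.

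The members were set beside all tested genes of the same coding length, with no test of the difference. The 5 members of 6 kb or more (Mki67, Aspm, Cenpf, Cenpe and Ckap5) had a median of -0.32, and the 320 tested genes of that length a median of -0.25. All 5 lay wholly below the control range, as did 75.3% of the 320 genes. From 3 to 6 kb the median was -0.13 for 9 members and -0.12 for 1341 tested genes. From 2 to 3 kb it was -0.04 for 9 members and -0.06 for 1887 tested genes, and from 1 to 2 kb 0.02 for 12 members and 0.0061 for 4600 tested genes. Below 1 kb it was 0.11 for 9 members (Cenpa, Birc5, Ube2c, Pttg1, Spc24, Mad2l1, Spc25, Cdk1 and Bub3), of which Pttg1 was lower in fitted level (-0.10), and 0.08 for 4005 tested genes.  The limits of these classes were set after the data were seen.

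**Figure D3:**
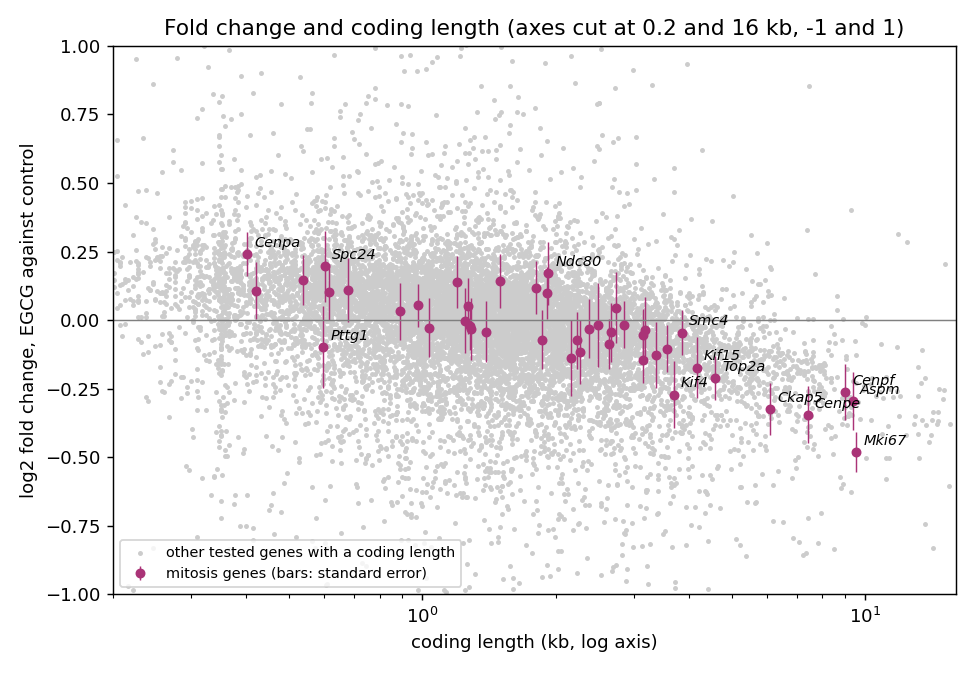
Fitted log2 fold change (EGCG against control) against coding length in kb on a log axis, for the 44 mitosis genes (purple, bars: standard error) and the other tested genes with a coding length (grey; genes outside the axes are not drawn). The members run with the grey cloud, from Cenpa (0.402 kb, 0.24) down to Mki67 (9.53 kb, -0.48).

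An offset for length in each library raised the fold changes of the long members that were lower, and moved others away from 0. With the offset on exonic length, 24 of the 44 members had a lower fitted level, and the log2 fold change was -0.25 for Cenpe, -0.21 for Ckap5, -0.16 for Aspm, -0.10 for Cenpf, 0.29 for Cenpa and 0.20 for Mad2l1 (0.10 without the offset). The Spearman correlation with coding length was then -0.71 over the members and -0.23 over the 12153 tested genes. With the offset on coding length, 17 were lower, and the correlation was -0.28 over the members and -0.0018 over the 12153 genes. The log2 fold change was -0.09 for Cenpe, -0.10 for Ckap5, -0.0011 for Aspm, 0.02 for Cenpf and 0.16 for Cenpa. Mki67 remained the lowest member under both offsets. Cenpa remained the highest with the offset on exonic length. With the offset on coding length Cenpa (0.158) lay below Ndc80 (0.22) and, by little, below Plk1 (0.165) and Cdc20 (0.164).

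**Figure D4:**
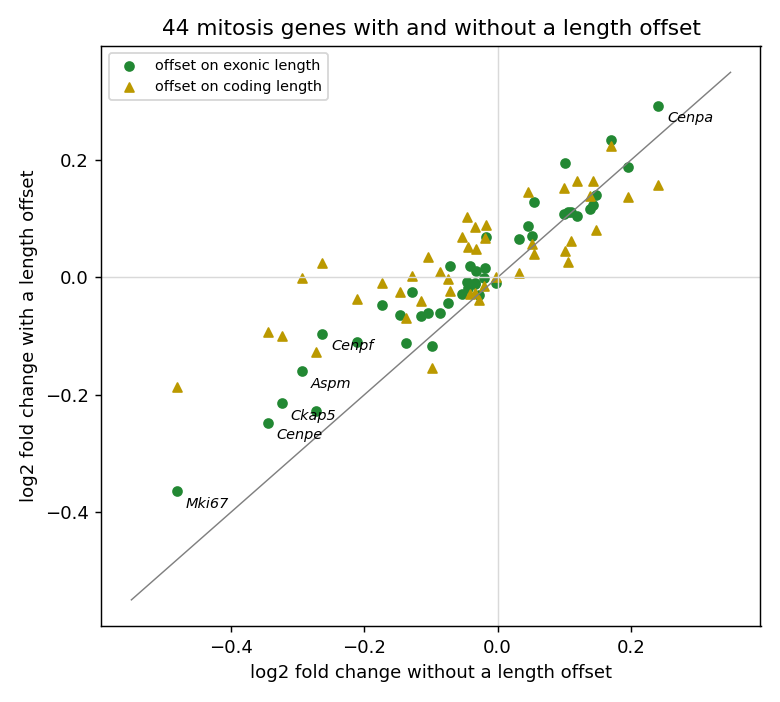
log2 fold change of the 44 mitosis genes with an offset for exonic length (green circles) or coding length (yellow triangles) against the log2 fold change without one; the diagonal marks equal values. The long genes at the left lie above the diagonal, and Mki67 moves from -0.48 to -0.36 and -0.19.

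The same relation was looked for between single libraries. In the members, the Spearman correlation of the log2 ratio with coding length ran from -0.76 to -0.58 over the 4 pairs of an EGCG with a control library, and was -0.09 for control replicate 2 against control replicate 1 and 0.14 for EGCG replicate 2 against EGCG replicate 1. Over 12153 tested genes it was -0.26 for control replicate 2 against control replicate 1, in a range from -0.42 to -0.24 for the EGCG-control pairs, and 0.03 between the EGCG libraries. Thus a length trend also separated the control libraries over all genes. The part of RNA quality or library preparation in the length trend was not tested, and with the groups as they are it cannot be told apart from the treatment.

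The sum of the 44 members was 1799 and 1852 CPM in the control and 1719 and 1691 CPM in the EGCG libraries. Without Mki67 it was 1506 and 1573 CPM in the control and 1510 and 1489 CPM in the EGCG libraries, so that the groups overlapped. The longer members summed to 1135 and 1169 CPM in the control and to 1002 and 988 CPM in the EGCG libraries, and the shorter members to 664 and 683 CPM in the control and to 717 and 703 CPM in the EGCG libraries.

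A further 106 genes of G2 and M phase, such as condensin, cohesin, centromere and APC/C genes, were all tested, and 0 were called in either direction by edgeR or by DESeq2 (at an unadjusted p under 0.05, edgeR had 2 lower and 6 higher, where 7.02% and 5.22% of all tested genes were). Their median log2 fold change was 0.02, and 47 had a lower fitted level. The lowest unadjusted p among the lower ones were those of Smc1a, a cohesin subunit (log2 fold change -0.18, standard error 0.07), Pds5a, a cohesin regulator (-0.18, standard error 0.08), and Mastl, the Greatwall kinase (-0.33, standard error 0.18). Among the higher ones they were those of Cenpq (0.42, standard error 0.13), Cks1b, a small CDK subunit (0.35, standard error 0.13), and Ska1 (0.38, standard error 0.15). The 3 lower genes have coding lengths from 2.595 to 3.996 kb and the 3 higher genes from 0.237 to 0.807 kb, and over the 106 genes the Spearman correlation with coding length was -0.57. Of 50 DNA replication and S phase genes, all tested, 0 were called by edgeR or DESeq2 (1 gene lower and 0 higher by edgeR's unadjusted p under 0.05, against the same shares), the median was -0.0024 and 26 had a lower fitted level. Chaf1a, a histone chaperone subunit, was the lower one (-0.30, standard error 0.14), and the others with the smallest unadjusted p were Cdc45 (-0.20), Timeless (-0.25), Mcm5 (0.14), Gins2 (0.29) and Pold1 (0.13).

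Marker lists describe which cells the libraries held. The mature neutrophil genes, the cells expected from a Gr-1 sort, summed to 50803 and 61578 CPM in the control and 70541 and 60928 CPM in the EGCG libraries, with 0 of 9 at the floor of 3 counts. Of the 12 neutrophil progenitor and precursor genes, the secondary granule genes Ltf, Camp, Ngp and Lcn2 summed to 14012 and 15172 CPM in the control and 15194 and 15207 CPM in the EGCG libraries. The other 8, among them the primary granule genes Mpo and Elane, summed to 1185 and 1212 CPM in the control and 1249 and 1154 CPM in the EGCG libraries, so that the groups overlapped. The 13 listed erythroid genes found in the table summed to 234 and 276 CPM in the control and 252 and 274 CPM in the EGCG libraries. The 5 haematopoietic progenitor genes summed to 95.1 and 96.4 CPM in the control and 91.7 and 90.8 CPM in the EGCG libraries, with 1 of 5 wholly lower, Gata2; without it the sums overlapped (48.9 and 46.8 CPM, then 49.5 and 46.2 CPM). Of the 8 macrophage genes, 5 lay wholly below the control range and 1, Slc40a1, wholly above (21.2% and 21.5% over all tested genes, the shares against which the counts of the other lists stand too). Their sum overlapped (952 and 1013 CPM, then 972 and 1017 CPM), and without Slc40a1 it was 390 and 388 CPM in the control and 303 and 321 CPM in the EGCG libraries. The 6 endothelial genes were lower in sum (120 and 130 CPM, then 97.1 and 103 CPM), with 4 wholly lower. So were the 7 monocyte genes (1103 and 1061 CPM, then 1005 and 1014 CPM), with 3 wholly lower, and the 5 platelet genes (38.7 and 43.6 CPM, then 35.4 and 34.2 CPM), with 1 wholly lower; without Csf1r and Itga2b in turn, the sums of these lists overlapped. The sum of the 8 T and NK cell genes was higher (98.0 and 109 CPM, then 113 and 115 CPM), most of it Cd3d, with 3 genes wholly higher and 2 wholly lower. The sums overlapped for the B cell (364 to 414 CPM; 2 of 6 wholly higher), plasma cell (363 to 391 CPM; 2 of 5 lower and 2 higher) and epithelial lists (22.7 to 26.7 CPM; 1 of 5 lower and 2 higher), and of the epithelial markers Krt8 and Krt14 were at the floor. Besides the macrophage list, the sum without the largest gene did not overlap in 3 further lists whose full sums did. The plasma cell genes without Jchain summed to 185 and 176 CPM in the control and 157 and 165 CPM in the EGCG libraries. The epithelial genes without Cdh1 were at 4.66 and 3.86 CPM, then 6.51 and 6.61 CPM. The mature neutrophil genes without S100a9 were at 28348.5 and 33284.8 CPM, then 38872.7 and 33921 CPM. No single marker was called by edgeR (0 of the 81 that were tested). The marker counts were not set beside genes of the same length. Over all tested genes, the share wholly below the control range rose from 10.1% below 1 kb of coding sequence to 48.4% from 3 to 6 kb. Whether a lower sum means fewer such cells was not tested. The part of these cells in the level of Mki67 was not tested.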

How the data were processed

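RNA of MDSCs sorted from the spleen was sequenced in 2 control and 2 EGCG libraries. The authors demultiplexed the reads with bcl2fastq 1.8.4, aligned them to GRCm38 with STAR 2.6.0c and made the deposited gene counts with featureCounts 1.6.2 on Ensembl release 91 without strand, as their methods and processing notes give it; the deposited values are raw counts. Counting without strand, and in pseudogenes and overlapping exons, can shift single genes. Groups came from the sample labels. The 44 members and all gene lists were chosen with earlier results of these data known.

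Counts were filtered with filterByExpr (minimum count 10), scaled by TMM and tested with edgeR 4.0.16 (R 4.3.3; quasi-likelihood, group only), with Benjamini-Hochberg adjustment over 14682 genes and a threshold of 0.05. The standard error is the size of the log2 fold change over the square root of F. Lengths and positions came from GENCODE M21, which held 53360 of the 53465 gene identifiers. Length offsets were a loess (span 0.4) of each library's log2 CPM deviations on log length. Promoters came from RefSeq (GRCm38.p6). No protein sequence was used here. Values in every library were given for called members, for up to 5 in each direction with the smallest p, for 14 regulators listed by name, and for the 5 longest and 5 shortest by exonic length; of the other lists, called genes or up to 3 in each direction. Alternatives were other scalings, filters, DESeq2 1.42.0, length offsets, a replicate block, other length splits and leaving out each library. Scripts were tested on simulated data. The libraries held 17767318 to 18390385 counts, and the common biological coefficient of variation was 0.0672.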

Additional observations from a re-analysis of the deposited data

How the results depend on the processing

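Mki67 was called lower in 12 of 16 alternatives (log2 fold change from -0.52 to -0.19, adjusted p from 4.70e-05 by DESeq2 to 0.525 by edgeR), and the count of mitosis genes called lower was 0 without a filter, with the length offset, with the replicate block and length offset, and with the offset on coding length (added after seeing the data). With that last offset the members' median was 0.025, with 17 lower and 27 higher. The 16 alternatives include the fits that leave out a library, where more genes were called over the whole table than under the main settings. The median over all tested genes ran from -0.03 (library size only) to 0.03 (length offset). Libraries with the same replicate number showed little shared deviation (correlation of deviations 0.0336 over 14682 genes). That value cannot tell whether the libraries were paired. The replicate block gave 24 genes called lower and 6 higher over all tested genes, against 20 and 2 without it. Mki67 stayed called with the block (adjusted p of 0.0168 by edgeR). Genes called lower over the whole table numbered 0 without a filter, 135 with library size only, 9 with upper quartile scaling, 49 with robust estimation, 54 with DESeq2, 1 with the length offset, 3 with the replicate block and length offset, and 3 with the coding offset. Genes called higher numbered 0 without a filter, 4 with at least 10 counts in every library, 16 with library size only, 14 with robust estimation, 6 with the newer quasi-likelihood form and 14 with DESeq2. The difference between longer and shorter members was -0.043 with the length offset, -0.047 with the replicate block and length offset, -0.053 with the coding offset, -0.25 between exonic terciles and -0.19 when divided by coding length. The CHR share was 41.7% in the 250 bases before the start alone, a window that leaves out matches reaching past the start. Over all genes it went from 21.7% to 19.6%. Apart from those named by construction, the cause was not tested.

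Leaving out each library in turn, the mitosis genes called lower numbered 1 to 1, their median ran from -0.073 to 0.039, those lower in level from 19 to 29 and those higher from 15 to 25, and the split from -0.19 to -0.088. Over the whole table, 72 to 235 genes were called lower and 5 to 119 higher, the most without control replicate 2, with the lone library assumed to vary like the other group. Further G2 and M phase genes lower in level numbered 44 to 51, and S phase genes 23 to 27. The direction of 20 members held in all 16 alternatives, and that of 24 changed in at least 1. With the coding offset the log2 fold change became 0.024 for Cenpf, 0.0034 for Anln, 0.036 for Smc2, 0.0099 for Incenp, 0.069 for Bub1b, 0.10 for Smc4, 0.053 for Kif20a, 0.087 for Bub1, 0.049 for Hmmr, 0.068 for Ttk, 0.089 for Kif23 and 0.0016 for Aurka. With the length offset, without and with the replicate block, it became 0.020 and 0.020 for Prc1, 0.020 and 0.020 for Nuf2, 0.011 and 0.014 for Hmmr, 0.015 and 0.020 for Ttk and 0.070 and 0.072 for Kif23. It became 0.00080 for Aurka without a filter, 0.0053 for Aurka with upper quartile scaling and -0.0025 for Cdk1 with library size only. The range over the fits that each omit a library was -0.38 to 0.074 for Kif2c, -0.26 to 0.021 for Foxm1, -0.33 to 0.19 for Pttg1, -0.18 to 0.023 for Incenp, -0.18 to 0.052 for Tpx2, -0.14 to 0.060 for Smc4, -0.079 to 0.00092 for Nuf2, -0.13 to 0.071 for Bub1, -0.15 to 0.074 for Ccnb1, -0.13 to 0.076 for Hmmr, -0.091 to 0.046 for Aurkb, -0.069 to 0.030 for Nusap1, -0.17 to 0.16 for Ttk, -0.090 to 0.067 for Kif23, -0.091 to 0.099 for Aurka, -0.050 to 0.13 for Cdk1, -0.065 to 0.17 for Ect2 and -0.050 to 0.15 for Ccna2. Other members kept their direction but moved in size, from -0.31 to -0.047 for Kif15, -0.090 to -0.0068 for Bub1b and -0.082 to -0.0041 for Kif20a. The range was 0.013 to 0.11 for Bub3, 0.025 to 0.19 for Tacc3 and 0.039 to 0.17 for Mad2l1. It was 0.012 to 0.21 for Spc25, 0.065 to 0.21 for Ccnb2 and 0.079 to 0.27 for Ndc80.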

Other observations

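Of 24 regulators of the G1 phase and of cell cycle exit, 23 were tested (Cdkn2a was not), and 0 were called by edgeR or DESeq2, with 11 lower in fitted level and 2 lower and 1 higher at edgeR's unadjusted p under 0.05 (7.02% and 5.22% of all tested genes). The smallest p among the higher genes was that of Cdkn1b, which encodes the CDK inhibitor p27. Cdkn1b was at 177 and 183 CPM in the control and at 207 and 199 CPM in the EGCG libraries, wholly above the control range (log2 fold change 0.17, standard error 0.07, adjusted p of 0.372 by edgeR's quasi-likelihood test). Ccnd2, cyclin D2, had a log2 fold change of -0.23 (standard error 0.10) and E2f7, a repressor of E2F targets, one of -0.47 (standard error 0.21). Cdk6 (-0.15), Cdkn2d (0.15) and E2f3 (0.20) were the others with the smallest p. Over these 23 genes the Spearman correlation of the log2 fold change with coding length was -0.08, and over the 50 S phase genes it was -0.14, each as a description across genes.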
